A study of Homo sapiens with 9 samples.

Results

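The expression of 10 genes of the matrix metalloproteinase system was followed over 3 concentrations of 5-aza-deoxycytidine (5-Aza) in HT-29 cells. The genes were 4 inhibitors, TIMP1, TIMP2, TIMP3 and TIMP4, and 6 proteases, MMP1, MMP2, MMP7, MMP9, MMP10 and MMP14, chosen by name out of 23284 gene symbols in the tables, and all 10 were found. HT-29 is a human colon cancer cell line that grows as an epithelial monolayer, and every group was cultured in the same medium with fetal bovine serum. The control group received the vehicle DMSO alone (0 µM 5-Aza), and the other groups received 5 µM or 10 µM 5-Aza, with 3 replicate cultures per group and 5 days of treatment. The 9 cultures were each sequenced by paired-end RNA-Seq, and expression is given as FPKM, the number of fragments per kilobase of transcript scaled to the mapped fragments of the library. All cultures come from a single line, so the spread between replicates is that between cultures and not between tumours or patients.

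Matrix metalloproteinases (MMPs) are zinc-dependent enzymes that cleave collagens, laminins, proteoglycans and many cell-surface and secreted proteins. Most are made as inactive proenzymes and are switched on outside the cell or at its surface, and the tissue inhibitors of metalloproteinases (TIMPs) block the active site of the mature enzymes. In the colon most of these genes are expressed mainly by stromal and immune cells, whereas MMP7 is also known as a product of epithelial and tumour cells. 5-Aza is a cytidine analogue that is built into DNA and traps DNA methyltransferases, so that methylation at CpG dinucleotides is lost as cells divide, and the TIMP3 promoter is known as a CpG-rich region that is methylated in several cancers. Methylation itself was not measured here.

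The promoters of 6 of the 10 genes were matched in RefSeq sequences (GRCh38.p14), and the sequences of 4 are shown: those of the 3 TIMP genes, for their CpG content, and that of MMP7, for its motifs. Each is the 250 bases before the transcription start, 5′ to 3′ on the strand of the gene. Capitals mark each CpG in the 3 TIMP promoters. In the MMP7 promoter capitals mark the AP-1 motif TGAGTCA, the TCF motif CTTTGA, which reads TCAAAG on the other strand, and the TATA motif TATAAA.
TIMP3, chr22:32801455-32801704, plus strand: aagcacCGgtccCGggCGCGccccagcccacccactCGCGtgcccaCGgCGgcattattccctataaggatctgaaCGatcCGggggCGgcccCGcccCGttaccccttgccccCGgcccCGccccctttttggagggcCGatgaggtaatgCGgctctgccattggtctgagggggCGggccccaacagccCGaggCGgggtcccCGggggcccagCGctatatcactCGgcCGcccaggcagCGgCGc
TIMP1, chrX:47582186-47582435, plus strand: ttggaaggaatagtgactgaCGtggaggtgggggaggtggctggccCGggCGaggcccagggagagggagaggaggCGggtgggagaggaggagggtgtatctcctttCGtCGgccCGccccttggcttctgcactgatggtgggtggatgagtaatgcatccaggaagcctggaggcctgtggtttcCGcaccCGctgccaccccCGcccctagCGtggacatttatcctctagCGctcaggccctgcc
TIMP4, chr3:12158913-12159162, minus strand: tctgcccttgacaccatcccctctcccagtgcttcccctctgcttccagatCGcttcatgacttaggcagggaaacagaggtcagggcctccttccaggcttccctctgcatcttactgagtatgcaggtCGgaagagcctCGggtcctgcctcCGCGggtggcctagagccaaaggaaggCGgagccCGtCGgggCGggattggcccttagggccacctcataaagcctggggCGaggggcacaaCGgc
MMP7, chr11:102530748-102530997, minus strand: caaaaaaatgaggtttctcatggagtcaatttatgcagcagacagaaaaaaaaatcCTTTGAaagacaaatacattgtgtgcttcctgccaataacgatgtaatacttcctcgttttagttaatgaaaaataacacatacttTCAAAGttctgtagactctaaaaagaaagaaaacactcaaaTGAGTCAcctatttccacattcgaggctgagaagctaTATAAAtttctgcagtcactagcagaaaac
The TIMP3 promoter held 26 CpG dinucleotides, and 82.3% of 35114 RefSeq promoters of the same length held as many or fewer. TIMP1 held 12 and TIMP4 held 11, at the median of 11 for all promoters or next to it. The MMP promoters were poorer in CpG, with 7 in MMP14, 3 in MMP7 and 2 in MMP10. MMP1, MMP2, MMP9 and TIMP2 are named only.

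The motifs were searched on both strands of these 250 bases. The AP-1 motif was found in MMP7 between 67 and 61 bases before the start, and 4.20% of all promoters hold it. The related TGAGTAA, which 2.21% of promoters hold, was found in TIMP1 between 101 and 95 bases before the start. The TCF motif occurred in MMP7 at 194 to 189 and at 108 to 103 bases before the start, against 11.2% of promoters with at least 1 match. TATAAA lay 30 to 25 bases before the start of MMP7 and 31 to 26 before that of MMP10, and 10.7% of promoters hold it. GGGCGG, the GC box, occurred 5 times in TIMP3, 2 times in TIMP1 and 1 time each in TIMP4 and MMP14, against 42.6% of promoters with a match. These motifs share no bases with each other in the 6 promoters.

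**Figure D1:**
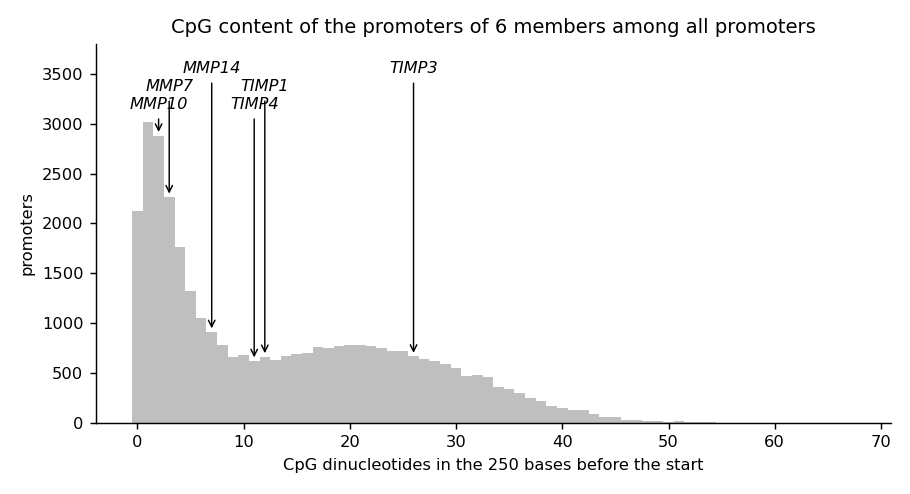
Number of RefSeq promoters (y axis) by the number of CpG dinucleotides in the 250 bases before the start (x axis), with arrows at the 6 matched genes. TIMP3, with 26 CpG, lies in the CpG-rich part of the distribution, TIMP1 and TIMP4 lie at 12 and 11, and the 3 MMP genes lie at 7 or below.

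The FPKM values of a library summed to between 3.69e+09 and 5.91e+09, so their scale is far above the usual one and only comparisons between values are used. The value of a single fragment was found from the low values, which step in whole fragments, and it gave the relative depth of the libraries. With the shallowest library, 0 µM replicate 1, set at 1.00, the control libraries ranged up to 2.14, the 5 µM libraries lay between 2.29 and 2.57, and the 10 µM libraries lay between 1.27 and 2.01. The 5 µM libraries were thus the deepest and also had the most symbols above 0, between 18761 and 18957, against 16373 to 16958 in the control and 17114 to 17592 at 10 µM. The part of depth in the results for genes of few fragments was not tested, and fragment numbers are given beside those genes.

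At 5 µM 5-Aza, 6 of the 10 genes rose over the vehicle control and none fell. The genes that rose were the inhibitors TIMP1 and TIMP3, the collagenase MMP1, the gelatinases MMP2 and MMP9 and the membrane-bound MMP14. MMP9 was listed at 0 in every control culture and entered the test only through its 5 µM values. Its call rests on 8, 1 and 2 fragments and was lost with a pseudocount of 1000 (limma adjusted p = 0.102). Over all 20051 genes tested by limma, 14.1% were called up and 2.17% were called down, where a call needs a p of 0.05 or less after Benjamini-Hochberg adjustment, with more than a 2-fold change on the log2(FPKM + 1) scale. At an unadjusted p under 0.05 with the same fold limit, 7 members were higher and 0 lower. The share of all genes at this unadjusted threshold was not counted, here or below. The 14.1% and 2.17% are shares of calls and are no measure for it. Counted without regard to calls, 8 members were higher and 2 lower, TIMP4 and MMP7. The median log2 difference of the 10 was 1.76, or 1.43 with MMP9 set to 11 fragments at 5 µM against 3 in the control, against 0.14 over all genes tested. Over the 7 members above 0 in all 6 libraries it was 1.26, against -0.04 over 15418 such genes.

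**Figure D2:**
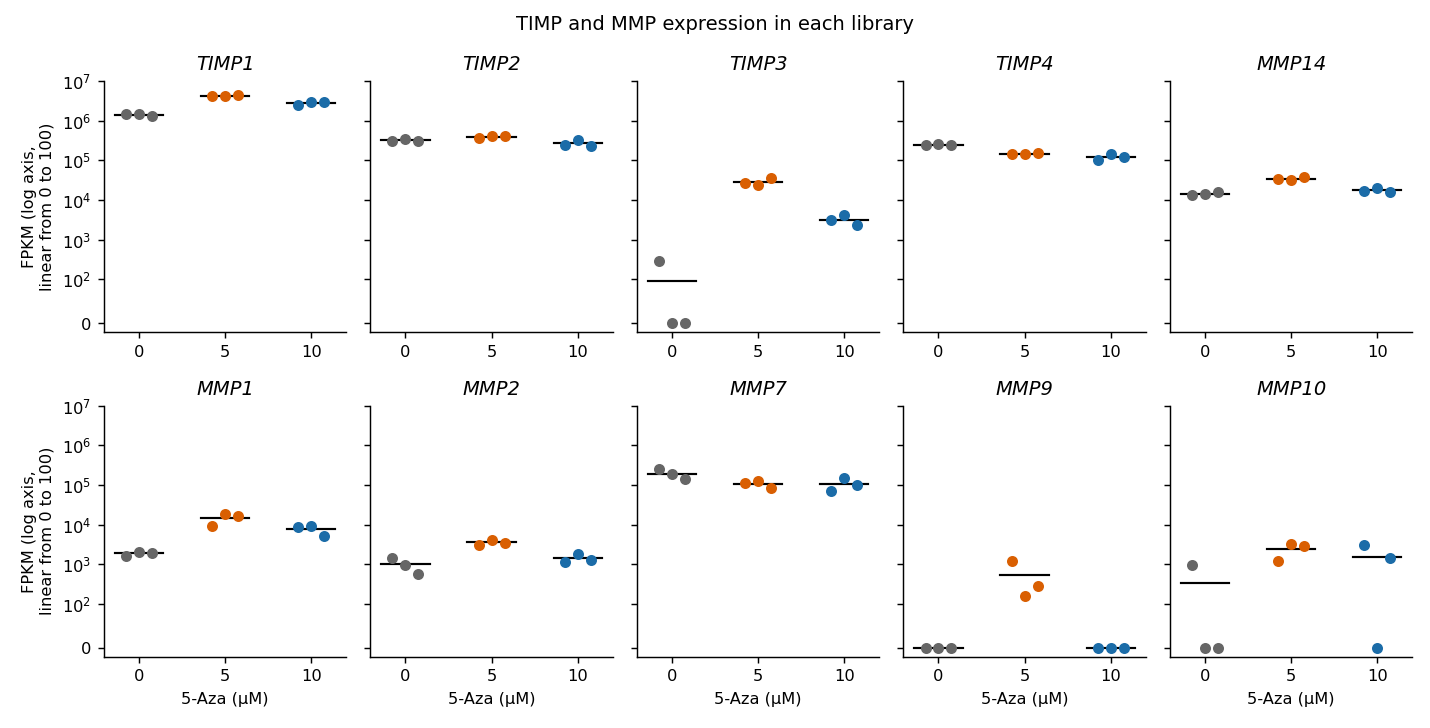
FPKM (y axis, logarithmic above 100 and linear from 0 to 100) of the 10 genes at 0, 5 and 10 µM 5-Aza (x axis). Each point is 1 library and each bar the mean of 3. TIMP1 is the highest gene in every library, TIMP3 and MMP9 stand out at 5 µM, and TIMP4 and MMP7 have their highest means in the control.

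TIMP1, a secreted inhibitor of most MMPs that also has growth factor-like activity, was by far the most abundant of the 10. It lies at chrX:47441807-47446188 (GRCh37, plus strand) and ranked between 104 and 576 by FPKM among all symbols in a library. Its FPKM was 1468340, 1473440 and 1300590 in the control cultures, 4206780, 4170720 and 4366910 with 5 µM, and 2437040, 3039240 and 2928030 with 10 µM. The 3 groups did not overlap, with the control lowest and 5 µM highest. The mean rose 3.00-fold from 1414120 ± 98356 to 4248140 ± 104429 (SD, n = 3) at 5 µM, a log2 difference of 1.59 with an SE of 0.085 (limma adjusted p = 0.000175). Between 5 and 10 µM the log2 difference was -0.61 (limma adjusted p = 0.149), which was not called. At 10 µM against the control it was 0.98 with an SE of 0.18 (limma adjusted p = 0.0194), just under the fold limit. It passed the limit at 1.22 with median-of-ratios scaling, and at 1.08 without 10 µM replicate 1.

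TIMP3, the inhibitor that binds to the extracellular matrix and also blocks several ADAM proteases, went from a bare trace to clear expression. It lies at chr22:33197691-33259028 (GRCh37, plus strand). Its FPKM was 289, 0 and 0 in the control cultures, 26083, 23843 and 35504 with 5 µM, and 3071, 4175 and 2379 with 10 µM. The smallest whole numbers of fragments that give these values are 2, 0 and 0 in the control, 434, 377 and 632 with 5 µM, and 27, 58 and 28 with 10 µM. Every 5 µM culture was above every 10 µM culture, and every 10 µM culture above every control. Scaled for library depth, the fragments at 5 µM were 461-fold those of the control, with a 95% counting interval from 127 to 3813, and those at 10 µM were 52.7-fold, with an interval from 14.3 to 440.4. The intervals cover counting error only. On the log2(FPKM + 1) scale TIMP3 rose by 12.05 with an SE of 2.24 at 5 µM (limma adjusted p = 0.00729), was called at 8.88 with an SE of 2.24 at 10 µM against the control (limma adjusted p = 0.0407), and fell by 3.17 with an SE of 0.31 between 5 and 10 µM (limma adjusted p = 0.00401). The sizes against the control depend on the pseudocount, since 2 control cultures are listed at 0. The 10 µM call against the control was lost without 0 µM replicate 2 or 3 or without any 1 of the 10 µM cultures, with limma adjusted p between 0.0662 and 0.123, with a pseudocount of 0.1 (limma adjusted p = 0.0574) and without a filter on low values (limma adjusted p = 0.131). The call between 5 and 10 µM was lost when all 9 samples shared a fit (limma adjusted p = 0.316).

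TIMP4, an inhibitor best known from the heart, was lower in both treated groups than in the control. It lies at chr3:12194568-12200412 (GRCh37, minus strand). Its FPKM was 246489, 257141 and 244201 in the control, 145556, 142604 and 153380 with 5 µM, and 100987, 145190 and 123396 with 10 µM. No treated culture reached the control range, while the 5 and 10 µM groups overlapped. The mean at 5 µM was 0.590 times that of the control, a log2 difference of -0.76 with an SE of 0.061, which passed the p threshold (limma adjusted p = 0.000427) but not the fold limit. At 10 µM TIMP4 fell by 1.03 with an SE of 0.15 on the log2 scale (limma adjusted p = 0.0101). This call sat at the fold limit: the difference was -0.79 with median-of-ratios scaling and -0.90 without 10 µM replicate 1, and the limma adjusted p was 0.0516 without 0 µM replicate 2. Between 5 and 10 µM the log2 difference was -0.27 (limma adjusted p = 0.313).

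TIMP2, which inhibits MMPs and also links MMP14 to the MMP2 proenzyme at the cell surface, differed little. It lies at chr17:76849059-76921469 (GRCh37, minus strand). Its FPKM was 312070, 336499 and 315220 in the control, 356142, 418680 and 399695 with 5 µM, and 237355, 332933 and 233379 with 10 µM. The 5 µM group lay above both other groups, which overlapped each other. The mean at 5 µM was 1.22 times that of the control, a log2 difference of 0.28 with an SE of 0.080 (limma adjusted p = 0.0330), under the fold limit. The log2 differences were -0.56 between 5 and 10 µM (limma adjusted p = 0.109) and -0.28 between 0 and 10 µM (limma adjusted p = 0.252).

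MMP14, the membrane-type protease that cleaves collagen and activates the MMP2 proenzyme, rose with 5 µM and returned close to the control with 10 µM. It lies at chr14:23305769-23318250 (GRCh37, plus strand). Its FPKM was 13298, 13818 and 15677 in the control, 34218, 31395 and 37153 with 5 µM, and 17319, 20206 and 15630 with 10 µM. All 5 µM cultures were above all others, and the 10 µM group overlapped the control. The mean rose 2.40-fold from 14264 ± 1251 to 34255 ± 2879 (SD, n = 3), a log2 difference of 1.26 with an SE of 0.13 (limma adjusted p = 0.000933). From 5 to 10 µM the log2 difference was -0.96 with an SE of 0.18 (limma adjusted p = 0.0267), just under the fold limit, and it was called at -1.05 without 10 µM replicate 2. The 10 µM mean was 1.24 times that of the control (limma adjusted p = 0.352).

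MMP2, a gelatinase that stromal fibroblasts typically make, was the lowest of the 7 members above 0 in every library. It lies at chr16:55423612-55540603 (GRCh37, plus strand). Its FPKM was 1445, 957 and 564 in the control, 3103, 4108 and 3462 with 5 µM, and 1137, 1798 and 1274 with 10 µM. These values rest on 5 or 6 fragments in each control culture, 31 to 39 with 5 µM and 6 to 15 with 10 µM. The 5 µM cultures lay above all others, while control and 10 µM overlapped. The mean rose 3.60-fold at 5 µM, a log2 difference of 1.94 with an SE of 0.46 (limma adjusted p = 0.0188). The call was lost without 5 µM replicate 2 or 3 (limma adjusted p = 0.0621 and 0.0603) and without a filter on low values (limma adjusted p = 0.0503). Between 5 and 10 µM the log2 difference was -1.36 with an SE of 0.40, which was not called, and without 10 µM replicate 2 it was called at -1.55 (limma adjusted p = 0.0425). It was 0.58 between 0 and 10 µM (limma adjusted p = 0.529).

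MMP1, the interstitial collagenase that cleaves fibrillar collagens, rose with 5 µM and was also called with 10 µM against the control. It lies at chr11:102660132-102668891 (GRCh37, minus strand). Its FPKM was 1656, 2092 and 1939 in the control, 9376, 18098 and 16246 with 5 µM, and 8794, 9435 and 5038 with 10 µM. Every treated culture was above every control, while 5 µM replicate 1 lay within the 10 µM range. The mean was 7.69 times that of the control at 5 µM, a log2 difference of 2.89 with an SE of 0.33 (limma adjusted p = 0.00115). It was 4.09 times that of the control at 10 µM, a log2 difference of 1.99 with an SE of 0.42 (limma adjusted p = 0.0250). The 10 µM call was lost without any 1 of the control cultures or without 10 µM replicate 1, with limma adjusted p between 0.0581 and 0.0764, and without a filter on low values (limma adjusted p = 0.0554). Between 5 and 10 µM the log2 difference was -0.91 (limma adjusted p = 0.191).

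MMP7, or matrilysin, the protease of epithelial cells and a known target of the Wnt pathway, made up most of the summed FPKM of the 6 MMPs. It lies at chr11:102391239-102401481 (GRCh37, minus strand). Its FPKM was 246677, 189579 and 142729 in the control, 110598, 127069 and 82117 with 5 µM, and 71543, 151329 and 101427 with 10 µM. The control cultures were spread widely around 192995 ± 52058 (SD, n = 3), the 5 µM cultures lay below all of them, and the 10 µM cultures overlapped both groups. The mean at 5 µM was 0.552 times that of the control, a log2 difference of -0.84 with an SE of 0.24 (limma adjusted p = 0.0345) under the fold limit, and without 0 µM replicate 3 it was called at -1.04. At 10 µM against the control the log2 difference was -0.87 (limma adjusted p = 0.0898), and it was called at -1.14 without 10 µM replicate 2. Between 5 and 10 µM it was -0.02 (limma adjusted p = 0.971) and changed sign with the scaling.

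MMP9, a gelatinase made largely by neutrophils and macrophages, was above 0 in the 5 µM cultures only. It lies at chr20:44637547-44645200 (GRCh37, plus strand). Its FPKM was 1194, 157 and 279 at 5 µM, and it was listed at 0 in all 3 control and all 3 10 µM cultures. These values amount to 8, 1 and 2 fragments. A single fragment was worth 359 FPKM in 0 µM replicate 1, more than the whole value of 2 of the 5 µM cultures. With 3 fragments set as the limit that a count of 0 allows over a group, the depth-scaled ratio at 5 µM was 2.34-fold against the control and 2.51-fold against 10 µM. These ratios take the 11 fragments at 5 µM as exact and are not lower bounds, and 8 of the 11 came from replicate 1. On the log2(FPKM + 1) scale it was called up at 5 µM against the control (limma adjusted p = 0.00270) and down between 5 and 10 µM (limma adjusted p = 0.0207). With a pseudocount of 1000 neither was called (limma adjusted p = 0.102 and 0.191), and the second call was also lost without 5 µM replicate 1 or 3 (limma adjusted p = 0.0712 and 0.0803).

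MMP10, a stromelysin of epithelial and tumour cells, was scattered among the replicates. It lies at chr11:102641233-102651359 (GRCh37, minus strand). Its FPKM was 986, 0 and 0 in the control, 1230, 3237 and 2875 with 5 µM, and 3105, 0 and 1449 with 10 µM. All 5 µM cultures were above all control cultures, while the 10 µM group spanned both. The fragments were 2, 0 and 0 in the control, 6, 15 and 15 with 5 µM, and 8, 0 and 5 with 10 µM. Scaled for depth, those at 5 µM were 11.5-fold the control, with a 95% counting interval from 2.96 to 98.7. The difference was not called (limma adjusted p = 0.0665), and it was called without 0 µM replicate 1 (limma adjusted p = 0.00116), the only control culture with a value, and with a pseudocount of 1000 (limma adjusted p = 0.0177).

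From 5 to 10 µM TIMP3 and MMP9 fell past both limits. The fitted log2 difference was below 0 for all 10 genes, while the mean FPKM of MMP7 was 106595 ± 22742 at 5 µM and 108100 ± 40309 at 10 µM (SD, n = 3). Over 20085 genes tested by limma, 4.82% were called down and 0.129% up, and the median log2 difference was -0.31 over all genes and -0.93 over the 10. Over the 8 members above 0 in these 6 libraries the median was -0.76, against -0.24 over 16203 such genes. None of the 10 was called up by limma, and none was higher at an unadjusted p under 0.05 with the fold limit, where 3 were lower. Median-of-ratios scaling moved the median of all genes by 0.20, and 9 of the 10 genes were then lower, with MMP7 as the exception at 0.18.

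At 10 µM against the control, 9 genes could be tested, since MMP9 was listed at 0 in all 6 cultures. TIMP3 and MMP1 were called up and TIMP4 down, and the same numbers, 2 and 1, passed the fold limit with an unadjusted p under 0.05. Over 18928 genes tested by limma, 4.07% were called up and 3.4% down. The median log2 difference of the 9 was 0.58, against -0.15 over all genes, and that of the 7 above 0 in all 6 libraries was 0.31, against -0.23 over 15261 such genes. The split of calls over all genes depended on scaling: as deposited it was 771 up and 644 down, and with median-of-ratios scaling, which moved the median of all genes by 0.23, it was 1125 up and 284 down. With that scaling TIMP1 joined TIMP3 and MMP1, and TIMP4 was no longer called. The 3 comparisons share samples, so their values are given side by side and were not compared with each other.

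Ratios within a library do not depend on its scaling, and they show that the RNA of the 4 TIMPs outweighed that of the 6 MMPs in every library and more so after treatment. The log2 ratio of the summed FPKM of the 6 MMPs to that of the 4 TIMPs was -3.27 ± 0.30 in the control, -4.90 ± 0.22 with 5 µM and -4.59 ± 0.28 with 10 µM (SD, n = 3). The lowest control culture, at -3.53, was above the highest treated culture, at -4.27, and both treated groups overlapped. The TIMP sum was set mainly by TIMP1, with 71.2% ± 1.3 of it in the control, 88.2% ± 0.58 with 5 µM and 87.7% ± 1.4 with 10 µM. MMP7 held 91.3% ± 2.4 of the MMP sum in the control, 65.4% ± 6.6 with 5 µM and 78.1% ± 6.9 with 10 µM. The 6 MMPs leave out 18 further MMP genes. Their summed FPKM was 254720 to 312974 in the control, 427793 to 444522 with 5 µM and 283753 to 385745 with 10 µM. The sum of the 6 was 160908 to 264062, 142132 to 184064 and 101897 to 182769 in the same order. The ratio to the TIMPs and the share of MMP7 thus describe the 6 MMPs only. The log2 ratio of TIMP1 to TIMP2 was 2.14 ± 0.095, 3.44 ± 0.12 and 3.40 ± 0.23 in the same order. MMP14 gained on its partner TIMP2, with a log2 ratio of -4.50 ± 0.15 in the control, -3.51 ± 0.19 with 5 µM and -3.91 ± 0.13 with 10 µM, and these 3 groups did not overlap. The ratios describe RNA only, since inhibitor and protease activity depend on protein, and they were not tested.

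**Figure D3:**
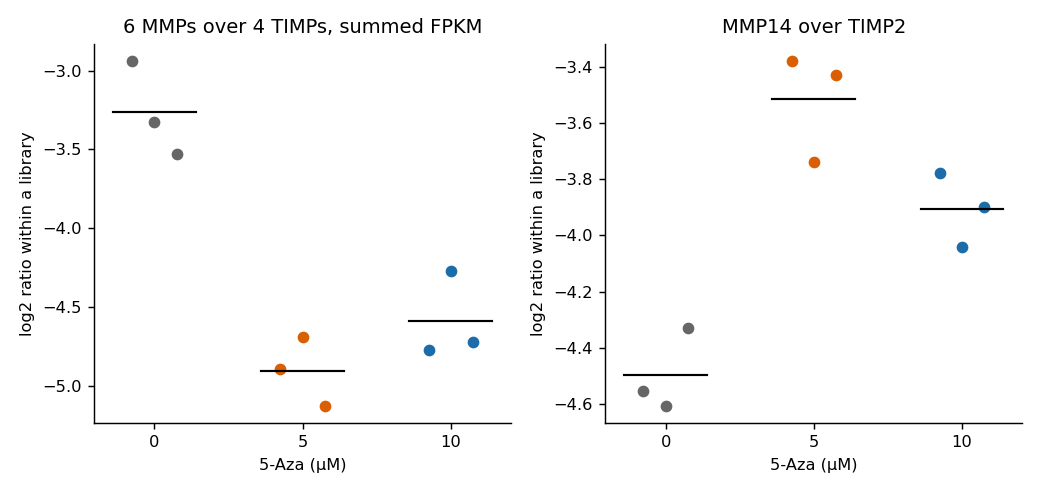
Log2 ratio within each library (y axis) at each 5-Aza concentration (x axis), left for the summed FPKM of the 6 MMPs over the 4 TIMPs and right for MMP14 over TIMP2, with 1 point per library and a bar at the mean. On the left all 6 treated libraries lie below the control libraries, and on the right they lie above them, with 5 µM highest.

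MMP1, MMP7 and MMP10 belong to a cluster of 9 MMP genes within 435223 bases, chr11:102391239-102826461 (GRCh37), in the order MMP7, MMP20, MMP27, MMP8, MMP10, MMP1, MMP3, MMP12 and MMP13. Neighbours in this cluster had unlike values. MMP7, at the edge, was lower at 5 µM while MMP1 rose, and MMP27, MMP8 and MMP12 were listed at 0 in all 9 libraries. The other called genes of the cluster were MMP20 and MMP13, the collagenase best known from cartilage, at the opposite edge. MMP13 had an FPKM of 5172, 4030 and 142 in the control, 61719, 75464 and 74362 with 5 µM, and 13166, 18026 and 8046 with 10 µM, and these groups did not overlap. It rose by 5.61 with an SE of 1.34 on the log2 scale at 5 µM (limma adjusted p = 0.0188) and fell by 2.50 with an SE of 0.30 from 5 to 10 µM (limma adjusted p = 0.00691). At 5 µM MMP13 was thus the second MMP of the cluster after MMP7, above MMP1.

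**Figure D4:**
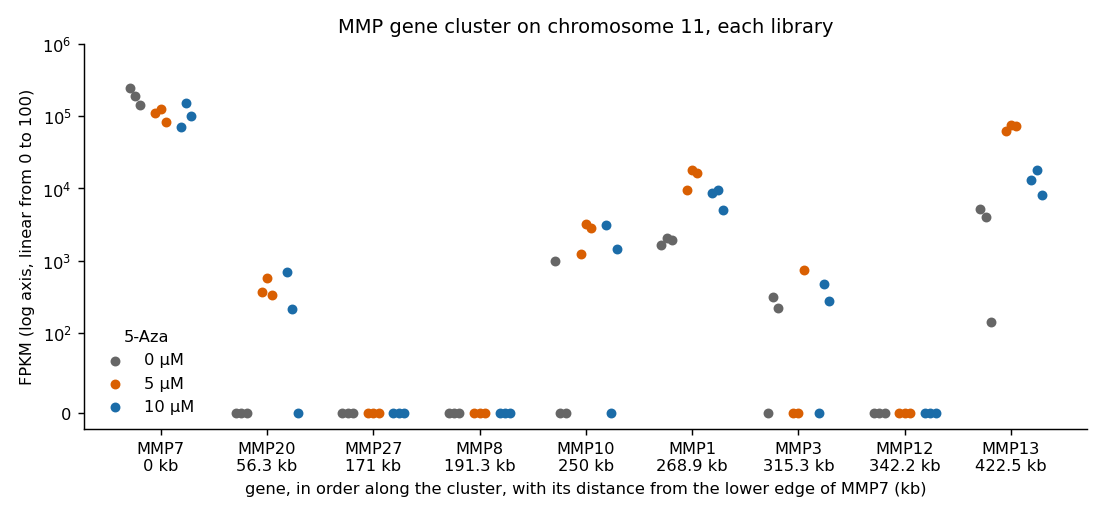
FPKM (y axis, logarithmic above 100 and linear from 0 to 100) of the 9 MMP genes of the chromosome 11 cluster in genomic order (x axis, with the distance from the lower edge of MMP7 in kb), 1 point per library. MMP7 lies highest at 0 µM, MMP1 and MMP13 are raised at 5 µM, and MMP27, MMP8 and MMP12 are at 0 in every library.

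Of 18 further MMP genes, 14 were tested at 5 µM and 3 rose, namely MMP13, MMP20 and the membrane-anchored MMP17, with 0 called down by limma and 0 lower at an unadjusted p under 0.05 with the fold limit, against 14.1% called up over all genes. MMP17 and MMP20 were listed at 0 in the control and rest on 25 and 7 fragments at 5 µM. The median log2 difference of the 8 that were above 0 in all 6 libraries was 0.50, against 1.26 for the 7 members and -0.04 for all genes. From 5 to 10 µM only MMP13 was called among the 14, and at 10 µM against the control none of 13 was called by limma, with 1 higher at an unadjusted p under 0.05 with the fold limit. MMP15, a membrane-type protease named here after its values were seen, had a mean FPKM of 198310 ± 17724 in the control, 275562 ± 2389 with 5 µM and 230002 ± 53827 with 10 µM (SD, n = 3), in the range of MMP7 in the control and above it in both treated groups, and was not called.

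The genes around the members in the proteolytic system moved in both directions. Of 16 tested activators and inhibitors of cell-surface proteolysis, 2 rose at 5 µM and none fell by limma, or by an unadjusted p under 0.05 with the fold limit, a share near the 14.1% called up over all genes. PLAU, the urokinase that generates plasmin, rose by 2.09 on the log2 scale with an SE of 0.27 (limma adjusted p = 0.00177). A2M, a broad protease inhibitor, was among those called down from 5 to 10 µM, where it was listed at 0 in all 3 cultures (limma adjusted p = 0.00593). Over the 13 of these genes above 0 in all 6 libraries the median at 5 µM was -0.16.

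Of the ADAMTS proteases, which cleave procollagens and proteoglycans and are inhibited by TIMP3, 17 were tested at 5 µM and 7 rose, with none called down by limma and 0 lower at an unadjusted p under 0.05 with the fold limit. Over all genes tested at 5 µM, 14.1% were called up and 2.17% down. ADAMTS8, ADAMTS20, ADAMTS1 and ADAMTS10 had the largest fitted differences, were listed at 0 in all 3 control cultures and amount to 26, 36, 7 and 6 fragments at 5 µM. At 10 µM against the control 4 of 15 were called up, ADAMTS8, ADAMTS10, ADAMTS14 and ADAMTS17, against 4.07% over all genes tested. Of 9 ADAM proteases, ADAM12 rose by 1.37 (limma adjusted p = 0.0353) and ADAM19 fell by 1.65 (limma adjusted p = 0.000201) at 5 µM, with a median of -0.05 over the 9.

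Among 13 transcription factors of the AP-1 and ETS families, which bind known MMP promoters, FOSB and ETV1 rose at 5 µM by 1.57 and 1.49 (limma adjusted p = 0.000923 and 0.00128). Both fell from 5 to 10 µM, by 1.24 and 1.10 (limma adjusted p = 0.0182 and 0.0434), and ETS1 fell by 1.35 (limma adjusted p = 0.0472). ELF3, an ETS factor of epithelia, fell by 1.21 at 5 µM (limma adjusted p = 0.000141) and by 1.23 at 10 µM (limma adjusted p = 0.00650) against the control. Thus 2 of the 13 were called up and 1 down at 5 µM, against 14.1% and 2.17% over all genes. With no fold limit, 3 were higher and 7 lower at a limma adjusted p of 0.05 or less, the lower ones including FOS, JUN, JUNB, JUND and ETS2. Without that limit 7816 of all 20051 genes tested passed in either direction, and the 14.1% and 2.17% are shares with it. The median of the 13 at 5 µM was -0.37. From 5 to 10 µM 3 were called down, against 4.82% over all genes, and at 10 µM against the control 2 were, against 3.4%. Whether these factors act on the members was not tested.

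Of 20 matrix proteins that MMPs cleave, 4 rose at 5 µM, with none called down by limma and 0 lower at an unadjusted p under 0.05 with the fold limit, against 14.1% called up over all genes. COL1A1, a chain of fibrillar collagen, rose by 2.53 (limma adjusted p = 0.000944), fibronectin (FN1) by 1.83 (limma adjusted p = 0.00268) and tenascin C (TNC) by 1.62 (limma adjusted p = 0.000498). COL1A2, the partner chain of COL1A1, was called at 5 µM on 33 fragments against 1 in the control (limma adjusted p = 0.0230). The median of the 14 above 0 in all 6 libraries was 0.27. From 5 to 10 µM COL1A2 and TNC were among the genes called down, and at 10 µM against the control COL1A1 and FN1 were called up.

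Markers of the cell types were checked because fibroblasts and leukocytes are usual sources of MMP2, MMP9 and TIMPs. All 10 epithelial markers were above 0 in the 9 libraries, and their summed FPKM was 83886587 to 100841932 in the control, 33709821 to 38078914 with 5 µM and 26996528 to 46989947 with 10 µM. KRT8 and KRT18 made up most of the control sum, with means of 39381700 and 32981700. At 5 µM the keratins KRT8, KRT18 and KRT19 and the colonic antigen GPA33 fell and CEACAM5 rose by limma. The other 5 markers were not called. CDX2 at -0.73, VIL1 at -0.47 and KRT20 at -0.46 passed the p threshold only (limma adjusted p = 0.00513, 0.00907 and 0.0371). EPCAM was at -0.23 and CDH1 at -0.06 (limma adjusted p = 0.197 and 0.594). Of the 10 markers 9 were lower and 1 higher at 5 µM, with a median of -0.60. At 10 µM against the control CDX2, GPA33, KRT19 and KRT20 were called down, against 3.4% over all genes tested. Over all genes tested at 5 µM, 2.17% were called down and 14.1% up. Of 11 fibroblast markers 10 were tested at 5 µM and 6 rose, against 14.1% called up over all genes. The sum of the 11 ranged from 23405 to 32819 in the control, 96718 to 106856 with 5 µM and 48138 to 56390 with 10 µM, with PDGFRA listed at 0 in all libraries. LUM and COL1A1 made up most of the control sum, with means of 19747 and 6567. The control means of POSTN, COL1A2, VIM and PDGFRB were 0, 22.9, 61.9 and 108. Of 8 macrophage and leukocyte markers, AIF1, CD68 and ITGAM rose at 5 µM, against 14.1% called up over all genes. AIF1 was listed at 0 in all 3 control cultures and entered the test only through its 5 µM values, 496 to 2256. The list of 8 summed to 160102 to 178461 in the control, 704772 to 751704 with 5 µM and 237376 to 402599 with 10 µM. Most of that sum was CD68, with a mean of 125260 ± 3312 in the control and 671084 ± 18579 at 5 µM (SD, n = 3), while CD14 had means of 40514 ± 6644 and 37791 ± 3124 and was not called. HT-29 is the only cell type named for these cultures, so the marker values are levels of genes and not counts of fibroblasts or leukocytes. The part of these markers in the members' results was not tested, and in bulk RNA fewer cells of a type cannot be told apart from less RNA per cell.

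Of the 4 TIMP genes, 3 lie inside synapsin genes on the opposite strand, TIMP1 in SYN1, TIMP3 in SYN3 and TIMP4 in SYN2. TIMP1 and TIMP3 share 0 exonic bases with their hosts, and TIMP4 shares 170 of its 1194. SYN1 rose with TIMP1 at 5 µM by 3.33 on the log2 scale (limma adjusted p = 0.000202), from a mean of 2267 ± 50.3 to 22816 ± 2362 (SD, n = 3), and fell by 1.66 from 5 to 10 µM (limma adjusted p = 0.0120), and it stayed far below TIMP1. SYN3 had an FPKM of 0, 796 and 0 in the control, 1737, 1887 and 3090 with 5 µM and 0, 150 and 0 with 10 µM, highest at 5 µM like TIMP3, but was not called (limma adjusted p = 0.0592 for 5 against 0 µM). SYN2 was not called in any comparison, with means of 2059 ± 567, 1809 ± 389 and 1510 ± 260. The use of strand in counting is not stated, so reads in the 170 bases that TIMP4 shares with SYN2 cannot be told apart. For TIMP1 and TIMP3, which share none, reads from introns of the hosts were not examined.

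Across the 9 libraries the profile of TIMP1 was most like those of SLC17A7 (Pearson r = 0.997) and FABP3 (r = 0.994) among 15271 genes above 0 in all libraries. That of TIMP4 was most like EPHA1 (r = 0.996) and MGLL (r = 0.995), and that of MMP14 most like SEMA7A and HSPA1L (r = 0.988 each). These correlations are on log2(FPKM + 1), describe 3 groups of 3 libraries that share their treatment, and carry no test.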

How the data were processed

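RNA was measured by paired-end 100 bp RNA-Seq (TruSeq RNA kit) in 9 HT-29 cultures. The authors filtered reads with FASTX-Toolkit, aligned them with TopHat to hg19 and computed the deposited FPKM values per gene with Cufflinks, without pooling replicates. The annotation version is not given in the sources used here. FPKM are not counts, so no count model was used.

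Symbols on more than 1 entry (543, no member) were summed. Values were analysed as log2(FPKM + 1) in limma 3.58.1 under R 4.3.3 (lmFit, eBayes with trend), 6 samples per comparison, for genes whose largest value reached 10 in either group. Among the 7 members with whole fragments, 1 fragment was worth 56.2 to 842 FPKM. The limit of 10 and the pseudocount of 1 lie below that, so genes of very few fragments are among those tested. Benjamini-Hochberg adjustment ran over all genes tested, and genes were called where the adjusted p was 0.05 or less with a log2 difference beyond 1. The comparison of 10 with 0 µM was added to those of the study. An exact permutation test of 3 against 3 cannot go below 0.1 and was not used. The 10 members and the lists were chosen with earlier results of these data known. All members are named; of each further list, every called gene where 5 or fewer were called, otherwise the 4 with the largest difference among called genes whose groups do not overlap; and, for called members above the lowest 25% of expression, the 2 most similar genes. The synapsin genes were named for their position, after their values were seen. Some called genes of the further lists are counted but not reported here by name.

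Total counts are not given. Low values are whole multiples of what 1 fragment is worth: at 12 microRNA genes of 110 nucleotides 46 of 46 values came out whole within 0.02, which gave the relative depth, and smallest whole numbers of fragments were found for 7 of the 10 members (not TIMP1, TIMP2 and MMP1). Counting intervals are at 95%, and a 0 was taken to allow 3 fragments. The scripts were tested on simulated data. Gene positions are from GRCh37 and promoters from RefSeq GRCh38.p14, with motif positions counted from the start within that build. Python packages were scipy 1.17.1, pandas 2.3.3 and numpy 2.4.6. The alternatives were 2 other pseudocounts, 2 other filters, another scaling, a joint fit, a replicate block, no fold limit, the largest entry of a symbol, and each replicate left out.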

Additional observations from a re-analysis of the deposited data

How the results depend on the processing

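Of 434 values of single members under the alternatives, 392 kept their direction and side of the threshold, 25 lost a call, 13 gained one and 4 changed sign. Part of this was fixed in advance, so the 392 do not measure robustness. No member has more than 1 entry, so the largest entry cannot change a member's log2 difference. The filters, joint fit, replicate block and lack of a fold limit also leave it unchanged, and the last can only add calls. At 5 against 0 µM the calls of TIMP1, TIMP3, MMP1 and MMP14 were kept under all 15 alternatives. The 4 reversals were all of MMP7 from 5 to 10 µM, at 0.18 with median-of-ratios scaling, 0.01 without 5 µM replicate 1, 0.11 without 5 µM replicate 2 and 0.24 without 10 µM replicate 1, and over all left-out replicates the value ranged from -0.30 to 0.24. With no fold limit 2 members, TIMP4 and MMP7, were called down at 5 against 0 µM. Down calls from 5 to 10 µM numbered 1 with a pseudocount of 1000 and 1 in a joint fit of all 9 samples. Up calls at 10 against 0 µM numbered 1 with a pseudocount of 0.1 and 0 without a filter, and down calls numbered 0 with median-of-ratios scaling. With each replicate left out in turn, down calls ranged from 0 to 1 at 5 against 0 µM, 1 to 4 at 10 against 5 µM and 0 to 2 at 10 against 0 µM, and up calls at 10 against 0 µM from 0 to 1. Unless a count of tested genes or samples changed by construction, the cause was not tested.

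No pairing by replicate number was seen. Deviations of same-numbered libraries correlated between -0.23 and 0.15 (9 pairs) and those of differently numbered ones between -0.31 and 0.25. Such correlations cannot exclude that cultures were handled in matched sets. With a replicate block, 1 member was called down from 5 to 10 µM instead of 2, since MMP9 had a limma adjusted p of 0.0774, and MMP2 at 5 µM had a limma adjusted p of 0.0540. Calls over all genes moved beyond 1.5 times from 3254 to 7816 at 5 against 0 µM with no fold limit, from 995 to 418 at 10 against 5 µM with the block and to 188 to 1937 with a replicate left out, and from 1415 at 10 against 0 µM to 759 without a filter, 2857 with no fold limit and 565 to 2319 with a replicate left out. Depth limits MMP9, MMP10, MMP2 and the control values of TIMP3, which rest on few fragments.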
